A study of Mus musculus with 21 samples.

Results

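TTR-1236 and Reference 4 are RNA interference agents directed against Ttr, the gene of transthyretin, and their effects on the hepatocyte transcriptome were compared at the same dose of 0.2 µM. Wild-type primary mouse hepatocytes, liver cells kept in culture, had received TTR-1236 at 0.2 µM in 3 libraries and Reference 4 at 0.2 µM in 3 libraries, and RNA was taken on Day 1. These 6 of the 21 libraries were chosen by title alone, and all 9657 genes in the files were compared. The other 15 libraries, in groups of 3, were PBS, which held no agent, TTR-1236 and Reference 4 at 2 µM, and a further agent against Ttr, TTR-1186, at 0.2 µM and 2 µM. The labels name the agents by code, so no structural difference between them is named. Whether replicates were separate cultures or animals is not stated in the labels, and p-values therefore reflect the scatter among these libraries, part of which may be technical.

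An RNA interference agent is a short RNA duplex whose guide strand is loaded into an Argonaute protein and base-pairs with its target mRNA, which Argonaute 2 then cuts. Hepatocytes are a favoured target tissue, because they take up suitably linked RNA from the blood through the asialoglycoprotein receptor and because they make most of the transthyretin in plasma, a carrier of thyroid hormone and of retinol-binding protein. A guide strand can also pair with other mRNAs through its seed, and the double-stranded RNA can meet innate sensors that drive interferon and NF-kB genes. The libraries were made by QuantSeq, a method that sequences near the 3′ end of polyadenylated transcripts, and levels are CPM, read counts scaled to sum to 1000000 in each library.

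Ttr itself was low with both agents, and the difference between them did not exceed the spread between libraries. The gene (ENSMUSG00000061808) is on chromosome 18 in GRCm38 (20665280 to 20674321, plus strand). With TTR-1236 it stood at 10.6, 9.92 and 5.25 CPM in replicates 1, 2 and 3, from 289, 371 and 119 reads. With Reference 4 it stood at 17.2, 17.6 and 4.99 CPM, from 244, 263 and 74 reads. The groups overlapped, since replicate 3 was far below the other libraries with Reference 4 and was also the lowest with TTR-1236. PBS stood at 2272, 2168 and 2336 CPM, so that the means of 8.58 ± 2.90 CPM (SD, n = 3) with TTR-1236 and 13.3 ± 7.17 CPM (SD, n = 3) with Reference 4 were 0.380% and 0.587% of the PBS mean. On the log2(CPM + 1) scale the difference, TTR-1236 minus Reference 4, was -0.45 with a 95% interval of -1.32 to 0.42 (adjusted p = 0.693 in limma), and an exact two-sided permutation test over the 6 libraries gave p = 0.6, where 0.1 is the smallest such a design allows. The interval reached beyond a 2-fold difference on the lower side, so the agents are not shown to act alike on Ttr. Counting error was smaller than the spread between replicates. The exact 95% Poisson interval of the lowest library, Reference 4 replicate 3, was 3.92 to 6.27 CPM, and that of the highest, Reference 4 replicate 2, was 15.5 to 19.8 CPM, and these intervals cover counting error only, as reads of PCR products without molecular identifiers are not independent molecules.

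**Figure D1:**
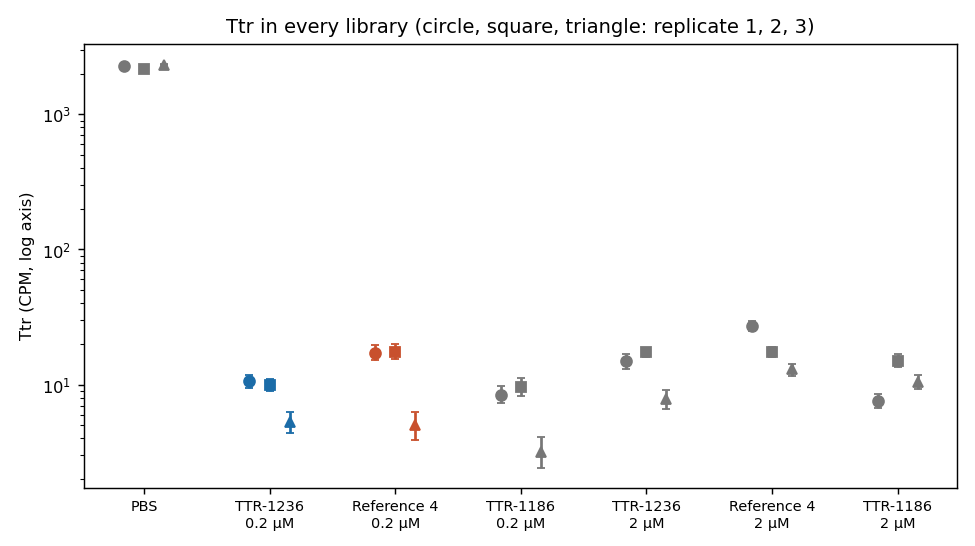
Ttr in CPM on a log axis in each of the 21 libraries, with exact 95% Poisson intervals that cover counting error only. TTR-1236 at 0.2 µM (blue, 5.25 to 10.6 CPM) and Reference 4 at 0.2 µM (orange, 4.99 to 17.6 CPM) overlap and lie far below PBS (2168 to 2336 CPM).

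Across the transcriptome 0 of 9657 genes passed the threshold between the agents at 0.2 µM, which is 0% of the genes tested (limma on all 21 libraries, Benjamini-Hochberg adjusted p under 0.05). The smallest adjusted p, 0.0701, was shared by 27 genes, and 172 genes were under 0.1, of which 159 were higher with TTR-1236 and 13 lower. At an unadjusted p under 0.05 stood 1351 genes (14%), 1008 of them higher with TTR-1236 (10.4% of all genes) and 343 lower (3.55%). The 3 libraries of one agent lay wholly above the 3 of the other for 1458 genes in favour of TTR-1236 (15.1%) and for 887 in favour of Reference 4 (9.19%), 24.3% of all genes together, and the difference lay above 0 for 55.5%. The balance between higher and lower depended on scaling. Of the genes at p under 0.05 the higher ones made up 74.6% with CPM as deposited, 66.0% with CPM rescaled by TMM factors, 64.0% in edgeR with TMM factors, 59.9% in edgeR with DESeq2 size factors and 58.1% in DESeq2. The median difference of all genes was 0.05 with CPM as deposited, 0.01 with rescaled CPM, -0.01 in edgeR with TMM factors and -0.03 in edgeR with DESeq2 size factors. The count of calls depended on which libraries gave the estimate of the spread and, with all 21 libraries fitted, on the method. A fit on only the 6 libraries compared called 499 genes (5.17%), of which 326 were higher (3.38%) and 173 lower (1.79%). DESeq2 on read counts recovered from the CPM called 238 (2.46%), of which 203 were higher (2.1%) and 35 lower (0.362%), and 217 genes (2.25%) were shared between these sets of calls. On the same read counts edgeR with TMM factors called 0 (0%), with 1271 genes at p under 0.05 (13.2%).

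Library measures also moved with the agent. The TTR-1236 libraries held 27331804, 37410773 and 22662376 reads in the listed genes and the Reference 4 libraries 14158740, 14971332 and 14825502, without overlap (exact two-sided permutation p = 0.1, the smallest possible). With every library thinned to the lowest total, 1336 genes stood at p under 0.05 and 0 passed the threshold. The mitochondrial ribosomal RNAs took 1.47% to 1.73% of CPM with TTR-1236 and 2.13% to 3.50% with Reference 4, also without overlap (exact permutation p = 0.1), and their part in the other differences was not tested. Single replicates also stood apart. For the genes higher with TTR-1236 at p under 0.05, TTR-1236 replicate 2 was the highest of its group in 69.2% and Reference 4 replicate 2 the lowest of its group in 58.7%, against 37.7% and 39.1% of all genes. For the same genes TTR-1236 replicate 3 was the lowest of its group in 63.7% (40.7% of all genes). For the genes lower with TTR-1236, TTR-1236 replicate 2 was the lowest of its group in 54.2% (29.6% of all genes) and Reference 4 replicate 3 the lowest in 60.6% (34.4%). Without TTR-1236 replicate 2 the genes at p under 0.05 numbered 766, without Reference 4 replicate 2 they numbered 891, and without both 521 (398 higher and 123 lower).

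The genes described next are the 12 annotated genes with the smallest p in each direction, with a mean of at least 10 CPM and groups that did not overlap. They were ranked by the same test, so their p-values are a description. None of the 24 passed the threshold in limma on 21 libraries, while the fit on the 6 libraries compared called all 24 (12 higher and 12 lower) and DESeq2 called 23 (12 and 11, without Phf5a). All 12 higher genes had an adjusted p of 0.0701 in limma, with differences from 0.49 to 1.92 on the log2(CPM + 1) scale. Reference 4 lay above PBS in 0 of the 12 and TTR-1236 in 9. In each of the 12, TTR-1236 replicate 2 was the highest library of its group and Reference 4 replicate 2 the lowest. Without both of these libraries the 12 differences lay between 0.43 and 1.495, with a sign that the naming rule had fixed.

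Genes of the secretory pathway were among those higher with TTR-1236. Sec13 (ENSMUSG00000030298, chromosome 6, 113728062 to 113740743) encodes a coat subunit of the vesicles that leave the endoplasmic reticulum, and it stood at 24.4, 28.8 and 23.3 CPM with TTR-1236 against 9.61, 5.41 and 6.88 CPM with Reference 4. Every TTR-1236 library was above every Reference 4 library by more than 2-fold, and the PBS libraries, at 13.5, 16.5 and 16.2 CPM, lay between them. The difference was 1.70 (1.06 to 2.34), with the smallest unadjusted p of the 24 genes. Sec61b, a subunit of the channel through which new proteins enter the endoplasmic reticulum, stood at 36.04, 48.1 and 34.7 CPM against 16.7, 16.3 and 25.4 CPM. Its PBS libraries, at 39.9, 41.9 and 38.5 CPM, were at the level of TTR-1236, and the difference between the agents was 1.00 (0.54 to 1.46).

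Redox genes were the next pair. Txn1 (ENSMUSG00000028367, chromosome 4, 57943373 to 57956411) encodes thioredoxin, which reduces disulfide bonds in other proteins. It stood at 209, 272 and 221 CPM with TTR-1236 and at 109, 77.5 and 127 CPM with Reference 4, a difference of 1.17 (0.67 to 1.67). PBS stood at 185, 245 and 168 CPM, so the Reference 4 libraries were below PBS as well, and TTR-1186 at 0.2 µM had a mean of 175 CPM. Mgst1 (ENSMUSG00000008540, chromosome 6, 138140316 to 138156755), a membrane-bound glutathione transferase that detoxifies lipid peroxides, stood at 149, 181 and 122 CPM against 73.3, 69.3 and 87.5 CPM, with PBS at 118, 156 and 111 CPM and a difference of 0.95 (0.52 to 1.39). Antioxidant genes are known targets of NRF2, which binds an element whose core is TGACNNNGC, and the promoter of Mgst1 is shown because it holds that core.
Mgst1: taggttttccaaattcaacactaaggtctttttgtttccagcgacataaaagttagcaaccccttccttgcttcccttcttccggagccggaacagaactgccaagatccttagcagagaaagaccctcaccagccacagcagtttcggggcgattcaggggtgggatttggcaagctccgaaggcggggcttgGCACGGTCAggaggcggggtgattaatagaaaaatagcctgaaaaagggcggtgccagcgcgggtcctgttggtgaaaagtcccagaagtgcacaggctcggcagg
The sequence is RefSeq's for GRCm38.p6, plus strand, chr6:138140277-138140576, from 250 bases before to 50 bases after a gene start, and is 1 of 2 start windows of the gene. Capitals mark the match, which lies on the opposite strand. On either strand 12.4% of the 32851 promoter windows in the table held such a match, so the match describes the sequence and names no factor as acting there.

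Cytoskeletal genes and a chemokine followed. Tubb2a, a beta-tubulin, stood at 174, 226 and 166 CPM with TTR-1236 and 104, 72.5 and 105 CPM with Reference 4 (difference 1.00, 0.57 to 1.44). Cttn, the gene of cortactin, which stabilises branched actin, stood at 99.3, 109 and 72.2 CPM against 45.8, 21.7 and 27.7 CPM (difference 1.58, 0.89 to 2.27). PBS lay between the agents for both genes, at means of 144 and 68.1 CPM. Ccl2 (ENSMUSG00000035385, chromosome 11, 82035571 to 82037453), a chemokine that draws monocytes and a target of NF-kB, stood at 56.4, 62.9 and 45.1 CPM with TTR-1236 and 24.01, 16.2 and 21.6 CPM with Reference 4. The Reference 4 libraries were also below PBS, which stood at 65.8, 71.7 and 56.3 CPM, and TTR-1186 at 0.2 µM had a mean of 39.5 CPM. Against PBS, Ccl2 passed the threshold with Reference 4 (adjusted p = 0.0229 in limma) and not with TTR-1236. The difference between TTR-1236 and Reference 4 was 1.37 (0.75 to 2.00). The 3′ end of Ccl2 is overlapped by Gm17268 on the opposite strand. At 2 µM the difference for Ccl2 had the opposite sign, at -0.77 (-1.40 to -0.15), and the interaction of agent and dose gave an adjusted p of 0.0935 in limma, which did not pass the threshold.

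The other genes of this set had varied roles. Ppia encodes cyclophilin A, a prolyl isomerase, and stood at 455, 708 and 469 CPM with TTR-1236 against 268, 209.5 and 246 CPM with Reference 4 (difference 1.15, 0.64 to 1.66). Tinagl1, a secreted protein of the extracellular matrix, stood at 17.3, 30.5 and 17.1 CPM against 7.13, 1.74 and 7.69 CPM (difference 1.92, 1.05 to 2.79). Tinagl1 had the largest difference of the 24 genes, and its lowest Reference 4 library rested on 26 reads. Against PBS, Tinagl1 passed the threshold with Reference 4 (adjusted p = 0.0274 in limma) and not with TTR-1236. Phc2, a Polycomb group subunit, had a difference of 1.89, and Itm2b, which encodes an integral membrane protein, of 0.76. Tpt1, the gene of the translationally controlled tumour protein, was the most abundant of the set, at 2872, 3101 and 2975 CPM against 2144, 2015 and 2199 CPM. Its difference of 0.49 (0.27 to 0.72) was the smallest, and it is uncertain because 6 pseudogenes carry its name, of which 2 are measured. Tubb2a and Ptma, which is described below, each have 1 such pseudogene, with 0 measured. Pseudogenes under other names were not matched to the 24 genes, so the others are not shown to be free of shared reads.

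**Figure D2:**
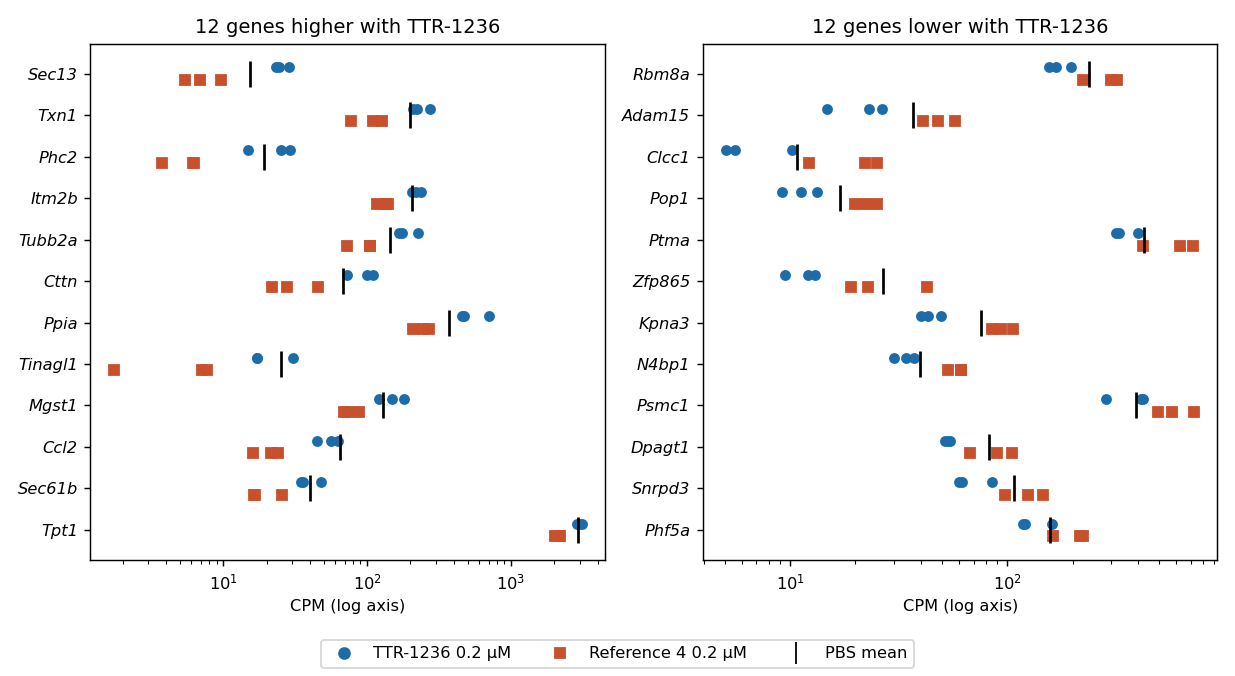
CPM on a log axis in each of the 3 TTR-1236 libraries (blue circles) and the 3 Reference 4 libraries (orange squares) at 0.2 µM, with the PBS mean as a black bar, for the 12 genes of smallest p in each direction. The groups do not overlap for any of the 24 genes, as the naming rule required, and none passed the adjusted threshold.

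The 12 genes lower with TTR-1236 had differences from -1.39 to -0.59, with adjusted p-values between 0.0710 and 0.117 in limma. Reference 4 lay above PBS in 11 of the 12 and TTR-1236 in 0. Rbm8a (ENSMUSG00000038374, chromosome 3, 96629933 to 96633791), a core subunit of the exon junction complex that marks spliced mRNA, stood at 197, 155 and 167 CPM with TTR-1236 and 319.7, 299.8 and 223 CPM with Reference 4, with PBS at 249, 255 and 211 CPM. TTR-1236 was the lower group beside both, and the difference was -0.68 (-1.02 to -0.35). The spliceosome genes Snrpd3 and Phf5a stood at 85.4, 59.98 and 61.95 against 124, 146 and 97.6 CPM (difference -0.82) and at 160.0, 118 and 120.3 against 224, 216 and 163 CPM (difference -0.59). Pop1, a subunit of the RNA-cutting enzymes RNase P and RNase MRP, stood at 9.22, 11.2 and 13.3 CPM against 19.9, 22.4 and 25.1 CPM, a difference of -0.95 (-1.45 to -0.44).

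The remaining lower genes have varied roles. Psmc1, an ATPase subunit of the proteasome, stood at 422, 284 and 413 CPM with TTR-1236 and 575, 725 and 493 CPM with Reference 4. Here Reference 4 was also above PBS, which stood at 406, 351 and 419.8 CPM. TTR-1186 at 0.2 µM, with a mean of 506 ± 28.2 CPM (SD, n = 3), was above the PBS mean of 392 CPM too. Kpna3, an importin that carries proteins into the nucleus, stood at 49.7, 43.2 and 40.2 CPM against 106, 93.2 and 85.1 CPM (difference -1.08, -1.70 to -0.46). The PBS libraries of Kpna3, at 97.9, 97.5 and 31.97 CPM, spanned the levels of both agents. Dpagt1, which starts the synthesis of N-linked sugar chains, stood at 51.4, 54.4 and 53.4 CPM against 89.8, 105 and 67.2 CPM. Ptma (prothymosin alpha) had a difference of -0.73, and N4bp1, an inhibitor of NF-kB activation, of -0.78. Adam15, a membrane metalloprotease, had a difference of -1.18, Clcc1, a chloride channel of the endoplasmic reticulum, of -1.39, and the zinc finger gene Zfp865 of -1.14. The 3′ ends of Clcc1, Zfp865, Adam15 and Dpagt1 are overlapped by an annotated gene on the opposite strand, and as the strand setting of the counting is not given in the sources used here, their reads cannot be assigned with certainty. That of Zfp865 is also overlapped by Ccdc106 on the same strand, which no strand setting would resolve. Without the replicates 2 of both agents the 12 differences lay between -1.47 and -0.35, again with a sign fixed by the naming rule.

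The same pair of agents at 2 µM gave an independent set of 6 libraries. There 0 genes passed the threshold (0%), the smallest adjusted p was 1.00, and 288 genes (2.98%) stood at p under 0.05. Of the 1008 genes higher with TTR-1236 at 0.2 µM by p, 34.1% were also higher at 2 µM, where 44.4% of all genes were, and their median difference was -0.08. Of the 343 lower genes 53.4% were lower at 2 µM, where 55.6% of all genes were, and their median was -0.02, beside -0.03 for all genes. The 12 named higher genes lay between -0.77 and 0.14 at 2 µM, with 4 above 0, and the 12 named lower genes between -0.25 and 0.16, with 6 below 0. For the difference of the differences (agent by dose) 0 genes passed the threshold (0%), 914 stood at p under 0.05 (9.46%), and the smallest adjusted p was 0.0935, so a dependence on dose was not shown for any single gene in limma. DESeq2 called 66 genes for it, and limma called 40 without Reference 4 2 µM replicate 1 and 79 without TTR-1236 2 µM replicate 2.

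**Figure D3:**
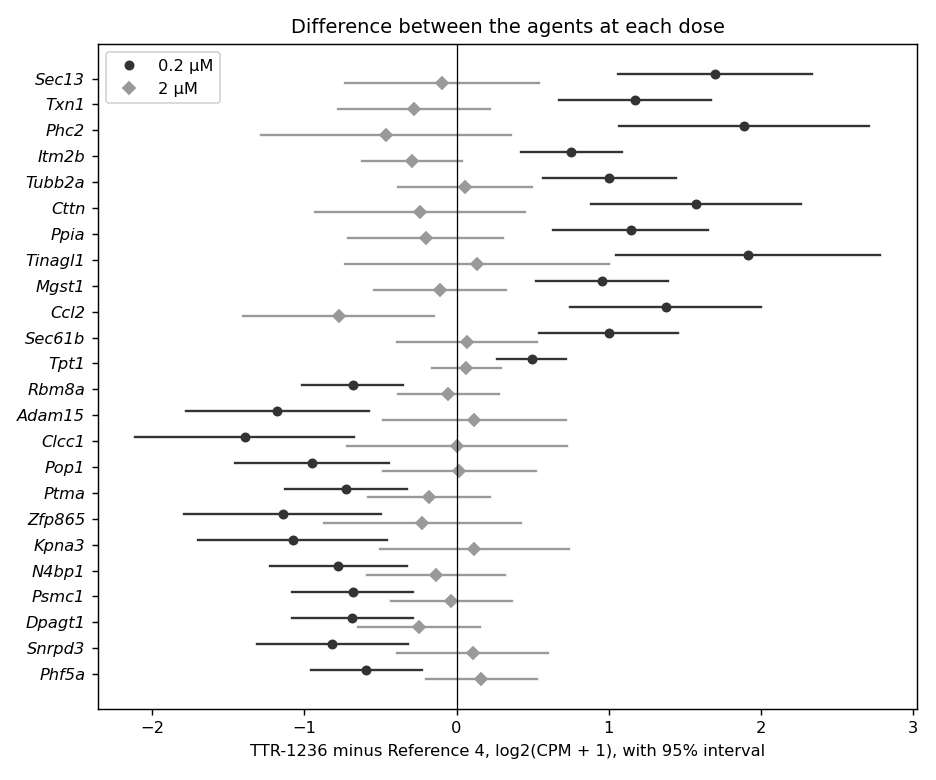
Difference between TTR-1236 and Reference 4 on the log2(CPM + 1) scale, with 95% intervals, at 0.2 µM (dark circles) and at 2 µM (light diamonds) for the 24 named genes. The genes were chosen by their values at 0.2 µM, and at 2 µM the differences lie between -0.77 and 0.16.

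Of the genes set by name, 7 more are given here, and none passed the threshold between the agents in limma on 21 libraries. Igfbp1, Fga and Jak1 passed it against PBS with Reference 4 at 0.2 µM (adjusted p = 1.92e-04, 0.00732 and 0.0430 in limma) and Igfbp1 with TTR-1236 as well (adjusted p = 0.0495), while Alb, Asgr1, Ago2 and Rbp4 passed it with neither. Igfbp1, a secreted binder of insulin-like growth factors, stood at 202, 195 and 183 CPM with TTR-1236 and at 133, 149 and 150.2 CPM with Reference 4, both below PBS at 430.0, 358 and 371 CPM. The agents' libraries did not overlap, and the difference was 0.42 (0.06 to 0.79, adjusted p = 0.271). Fga, which encodes a fibrinogen chain, stood at 167, 187 and 129 CPM against 122, 135 and 101 CPM with overlap (difference 0.42, 0.09 to 0.76, adjusted p = 0.217), and PBS at 245, 243 and 224 CPM. The kinase gene Jak1 stood at 197, 176 and 166 CPM against 169.7, 191 and 191 CPM, a difference of -0.03 (-0.31 to 0.24) that excluded a 2-fold difference in either direction. Both agents were below PBS, at 297, 309.5 and 256 CPM. The difference of Jak1 from PBS was -0.67 with TTR-1236 (adjusted p = 0.121 in limma) and -0.64 with Reference 4, so the threshold did not separate the agents by size. The 3′ end of Jak1 is overlapped by Raver2 on the opposite strand. Alb, the gene of albumin and a marker of hepatocytes, stood at 4833, 6118 and 5538 CPM against 3616, 3559 and 3811 CPM without overlap, with PBS at 5809, 5353 and 4384 CPM (difference 0.58, 0.30 to 0.86, adjusted p = 0.071). Asgr1, the major asialoglycoprotein receptor chain, differed by -0.36 (-0.94 to 0.23), Ago2 (Argonaute 2), which is overlapped at its 3′ end by Chrac1, by -0.15 (-0.57 to 0.28), and Rbp4, the partner of transthyretin in plasma, by 0.09 (-0.15 to 0.32).

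Gene lists were read by counts beside the background of all genes, in which 10.4% stood at p under 0.05 and higher with TTR-1236, 3.55% lower, and the median difference was 0.05. In every list 0 members passed the adjusted threshold in limma (0% of genes did). The members named are those with the smallest p in each list.

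Mitochondrial transcripts were read by class, and a difference between the classes was not tested. Of the 13 mRNAs encoded by mitochondrial DNA, which all belong to the respiratory chain and ATP synthase, 6 stood at p under 0.05 and higher with TTR-1236 (46.2%) and 0 lower, with a median difference of 0.39. Of the 13 differences 8 lay above 0 and 5 below. Their summed level overlapped between the agents, at 22132 to 28173 CPM with TTR-1236 and 19229.5 to 22398 CPM with Reference 4 (exact two-sided permutation p = 0.2). The ATP synthase subunit mt-Atp6 stood at 2998, 3810.0 and 3258 CPM against 1852, 1958 and 2258 CPM, with PBS between them at 2369, 2764 and 2327 CPM (difference 0.73, 0.43 to 1.03, adjusted p = 0.0701). The complex I subunit mt-Nd3 stood at 269, 321 and 299 CPM against 157, 163 and 251 CPM. The ribosomal RNAs of the same genome went the other way in both of the 2 members measured, with mt-Rnr1 at 2845, 2185 and 2835 CPM against 7503, 5529 and 4298 CPM and mt-Rnr2 at 14481, 12489 and 14327 CPM against 27482, 19118 and 17016 CPM. The groups did not overlap for either, but PBS stood at 6986, 4675 and 1264 CPM for mt-Rnr1 and the intervals of the differences, -1.11 (-2.44 to 0.22) and -0.60 (-1.82 to 0.63), included 0. At 2 µM the median of the 13 mRNAs was -0.23 and that of the ribosomal RNAs -0.75. Nuclear genes of the respiratory chain had 23 of 75 members at p under 0.05 and higher (30.7%) and 2 lower, with a median of 0.18. Atp5g2, a subunit of the ATP synthase membrane ring, stood at 144, 194 and 172 CPM against 92.3, 112 and 98.4 CPM (difference 0.74), and Ndufa8 of complex I at 55.4, 55.6 and 51.6 CPM against 33.1, 24.2 and 34.3 CPM (difference 0.82).

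Cytosolic ribosomal protein genes had 16 of 82 members at p under 0.05 and higher (19.5%) and 0 lower, while their median difference of 0.07 was close to that of all genes. Rps28 stood at 406, 449.9 and 368 CPM with TTR-1236 and 221, 226 and 183 CPM with Reference 4, with PBS at 355, 438 and 295 CPM (difference 0.96, 0.50 to 1.42). The 3′ end of Rps28 is overlapped by Kank3 on the opposite strand, and Rpl22l1, with a difference of 1.02, is overlapped by the antisense gene Gm33051. The summed level of the 82 genes overlapped between the agents, at 88628 to 93941 CPM with TTR-1236 and 87493 to 98107 CPM with Reference 4.

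Genes of NF-kB, chemokines and adhesion molecules had 5 of 19 measured members at p under 0.05 and higher with TTR-1236 (26.3%) and 0 lower. The median difference was 0.29 and 16 of the 19 lay above 0. Beside Ccl2 the leading member was Cd14, a co-receptor for bacterial lipopolysaccharide, at 18.04, 23.2 and 14.96 CPM with TTR-1236 against 7.13, 3.94 and 5.60 CPM with Reference 4. PBS stood at 29.7, 26.2 and 15.5 CPM, so Reference 4 was again below both TTR-1236 and PBS. TTR-1186 at 0.2 µM, with a mean of 9.59 ± 6.55 CPM (SD, n = 3), was also below the PBS mean of 23.8 CPM. The difference between TTR-1236 and Reference 4 was 1.60 (0.63 to 2.56, adjusted p = 0.113 in limma). At 2 µM the median of the 19 genes was -0.15, with Ccl2 at -0.77 and Cd14 at -0.89. Interferon-stimulated genes and RNA sensors had 4 of 44 members higher (9.09%) and 1 lower, close to all genes, and a median of -0.08. B2m, the light chain of class I histocompatibility molecules, stood at 1368, 1510.3 and 1571 CPM against 1079, 1013 and 1086 CPM, and Bst2 (tetherin) at 209, 167 and 180.3 CPM against 128, 123 and 85.5 CPM. The 3′ end of B2m is overlapped by Patl2 on the opposite strand. At 2 µM the median of the 44 genes was -0.36, with 6 at p under 0.05 and lower with TTR-1236 and 0 higher. B2m differed by 0.48 at 0.2 µM and -0.55 (-0.85 to -0.26) at 2 µM, and Bst2 by 0.73 and -0.80 (-1.27 to -0.34). The interaction of agent and dose gave both an adjusted p of 0.0935 in limma, which did not pass the threshold. Acute phase proteins had 2 of 38 higher (5.26%) and 1 lower, led by Fga and by Apcs, serum amyloid P, at 89.1, 101 and 85.1 CPM against 60.1, 66.3 and 69.1 CPM. Coagulation and complement genes had 3 of 33 higher and 1 lower, led by Mbl2, mannose-binding lectin, with a difference of 0.64, and C1s1 with 0.61.

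Genes of glutathione metabolism and NRF2 had 8 of 42 members at p under 0.05 and higher (19.0%) and 1 lower, with a median of 0.20, led by Txn1 and Mgst1. Cytochrome P450 and xenobiotic enzyme genes had 7 of 43 higher (16.3%) and 1 lower, with a median of 0.17. Cyp3a11, a major drug-metabolising enzyme, stood at 257, 367 and 283 CPM with TTR-1236 and 165, 183 and 171 CPM with Reference 4, with PBS at 183, 209.6 and 169 CPM, so that the TTR-1236 libraries were the high ones at 0.2 µM (difference 0.78, 0.41 to 1.16, adjusted p = 0.071). At 2 µM the mean of Cyp3a11 was 318 CPM with TTR-1236, 273 CPM with Reference 4 and 262 CPM with TTR-1186. These all lay above the PBS mean of 187 CPM, and TTR-1236 and Reference 4 differed there by 0.19 (-0.19 to 0.57). Ugt1a6b had a difference of 0.77 at 0.2 µM, but it shares its last exons with the other Ugt1a genes and so counts the same reads as they do. Cytoskeleton and culture dedifferentiation genes had 16 of 55 higher (29.1%) and 1 lower, beside a median of 0.05 that equalled that of all genes. Actg1, a cytoplasmic actin, stood at 1525, 1612 and 1542 CPM against 1123, 1138 and 1061 CPM (difference 0.49, 0.26 to 0.73, adjusted p = 0.071), and Tubb2a is given above.

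**Figure D4:**
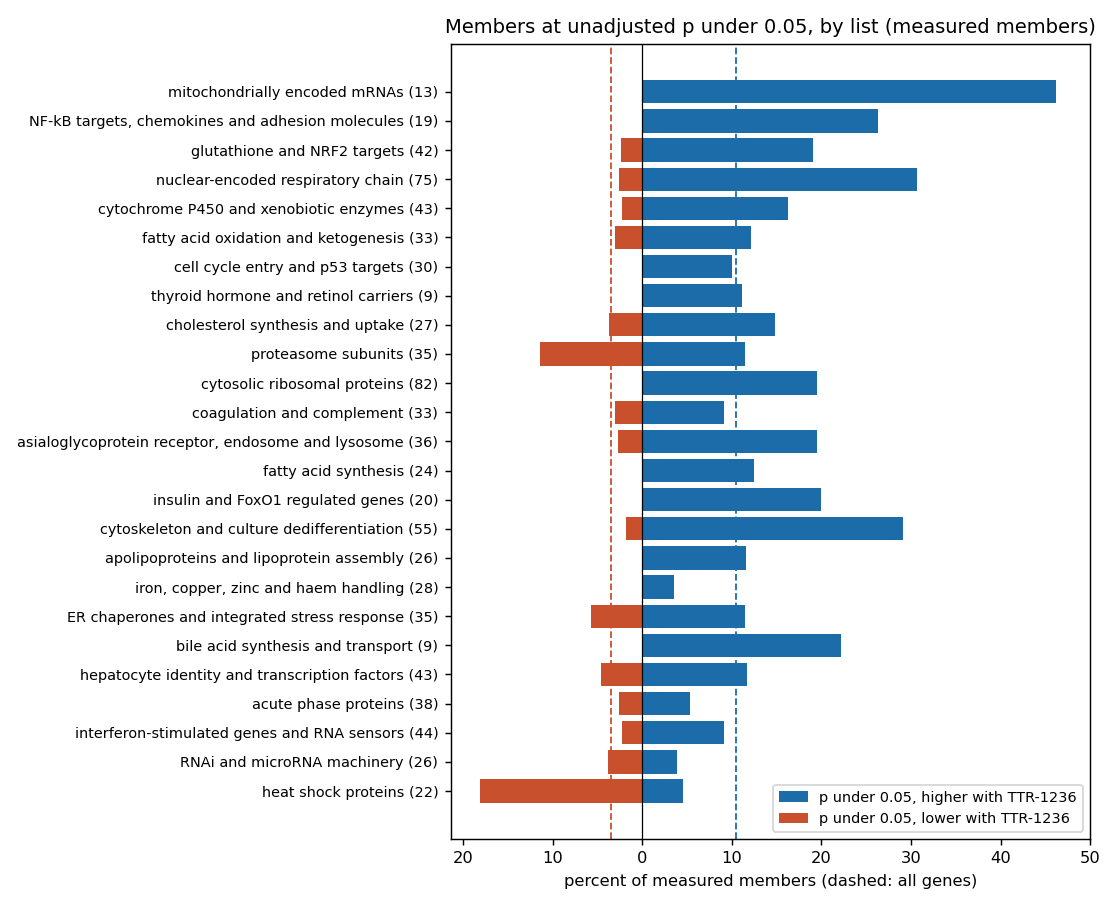
Percent of the measured members of each list at unadjusted p under 0.05, higher with TTR-1236 (blue, to the right) or lower (orange, to the left), ordered by median difference, for lists with at least 9 measured members. The dashed lines mark all genes, at 10.4% and 3.55%, and no member of any list passed the adjusted threshold.

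Genes of protein folding and breakdown were mixed. Heat shock proteins had 4 of 22 members at p under 0.05 and lower with TTR-1236 (18.2%, against 3.55% of all genes) and 1 higher. Hspb1, a small heat shock protein, stood at 1857, 1529.5 and 1819.8 CPM with TTR-1236 and 2894, 3077 and 2009.7 CPM with Reference 4, with PBS at 1365, 1407 and 2067 CPM, and Reference 4 had the highest mean (difference -0.60, -1.03 to -0.16). Hspa8, the constitutive HSP70, went the other way, at 564, 631 and 542 CPM against 440.3, 430.4 and 476 CPM. Proteasome subunits had 4 of 35 higher and 4 lower (11.4% each), the lower ones led by the ATPases Psmc1 and Psmc5, the latter with a difference of -0.56. Chaperones of the endoplasmic reticulum and the integrated stress response had 4 of 35 higher and 2 lower. Xbp1, a transcription factor of the unfolded protein response, stood at 50.8, 59.8 and 33.98 CPM against 23.7, 16.5 and 20.3 CPM (difference 1.19), and Manf, overlapped at its 3′ end by Dcaf1, had a difference of 1.27.

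The machinery through which RNA interference acts is given next. RNAi and microRNA genes had 1 of 26 members higher and 1 lower at p under 0.05 (3.85% each, against 10.4% and 3.55% of all genes), with a median of -0.11. Groups did not overlap for 7 members in favour of Reference 4 (26.9%, against 9.19% of all genes) and for 1 in favour of TTR-1236 (3.85%, against 15.1%). Cnot7, a deadenylase, had a difference of 0.78 (0.16 to 1.40) and Tsn, translin, of -0.32 (-0.59 to -0.04). Of the asialoglycoprotein receptor, endosome and lysosome genes 7 of 36 were higher (19.4%) and 1 lower. The lysosomal protease gene Ctsl stood at 502, 557 and 435 CPM with TTR-1236 and 363, 309 and 323 CPM with Reference 4, and the lysosomal membrane protein gene Lamp2 at 251, 245 and 228 CPM against 175, 190.4 and 195 CPM. Thyroid hormone and retinol carriers had 1 of 9 higher, Alb, and the next by p was the amino acid transporter Slc16a10, at 0.59.

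Metabolic lists had from 1 to 5 members higher with TTR-1236 at p under 0.05. Apolipoprotein genes had 3 of 26 higher and 0 lower (Apoc2 0.59, Angptl4 0.54), cholesterol genes 4 of 27 and 1 (Lss 1.15, Nsdhl 0.59), fatty acid synthesis 3 of 24 and 0 (Aacs 1.10, Fads2 0.62) and fatty acid oxidation 4 of 33 and 1 (Cyp4a12a -0.68). Bile acid genes had 2 of 9 higher, of which the sterol hydroxylase Cyp27a1 stood at 33.1, 41.2 and 39.5 CPM against 21.5, 19.5 and 13.2 CPM and the bile acid receptor Nr1h4 differed by 0.76. Insulin and FoxO1 genes had 4 of 20 higher and 0 lower (Akt1 0.73, Igfbp4 0.46). Metal and haem genes had 1 of 28 (Cpox 0.95, Slc39a14 0.54). Cell cycle and p53 genes had 3 of 30 (Ccnd1 0.97, overlapped by LTO1, and Cdt1 0.77). Hepatocyte identity genes had 5 of 43 higher and 2 lower, led by Alb and by Cps1, the first enzyme of the urea cycle, at 18.1, 27.1 and 17.7 CPM against 5.79, 7.48 and 7.62 CPM.

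Markers of other liver cells were sparse in both groups. Of the Kupffer cell and macrophage markers 2 of 17 were measured, and their summed level was 102 to 133 CPM with TTR-1236 and 85.1 to 184 CPM with Reference 4 (Csf1r 0.31, Cd68 -0.05). Of the endothelial markers 3 of 15 were measured, summing to 36.7 to 50.8 CPM and 28.4 to 48.4 CPM (Eng 0.31, Stab1 0.36). Of the stellate cell and fibroblast markers 7 of 17 were measured, summing to 129 to 133 CPM and 123 to 149 CPM (Dcn 0.58, Acta2 -0.43). Of the cholangiocyte markers 4 of 10 were measured, summing to 140 to 172 CPM and 157 to 260 CPM (Cldn4 -0.61, Sox9 -0.24). Cldn4, a tight junction protein, was the 1 of these 4 at p under 0.05 and lower with TTR-1236 (-1.05 to -0.16, adjusted p = 0.186 in limma), and its part in the other differences was not tested. The groups overlapped in each of these sums, and 0 of 13 lymphocyte markers were in the files. In bulk samples fewer cells of a type and less RNA per cell cannot be told apart.

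Genes at p under 0.05 and higher with TTR-1236 had shorter transcripts. The median longest annotated transcript was 2678 bases for the protein-coding genes among them, 3450 bases for the lower genes and 3325 bases for all protein-coding genes. The share at p under 0.05 and higher was 20.4% of the 446 protein-coding genes with transcripts under 1000 bases and 2.83% of the 495 genes at 8000 bases and over, while the share lower was 3.36% and 4.65%. The median difference went from 0.11 to -0.14 between these classes at 0.2 µM, and from 0.01 to -0.08 at 2 µM. Transcript length is shared by genes of the same function, such as ribosomal and respiratory chain genes, and its part in the list counts was not tested. Of 753 pseudogenes 18.2% stood at p under 0.05 and higher, against 9.58% of 8365 annotated genes, and reads of pseudogenes are uncertain because they share sequence with their parent genes.

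**Figure D5:**
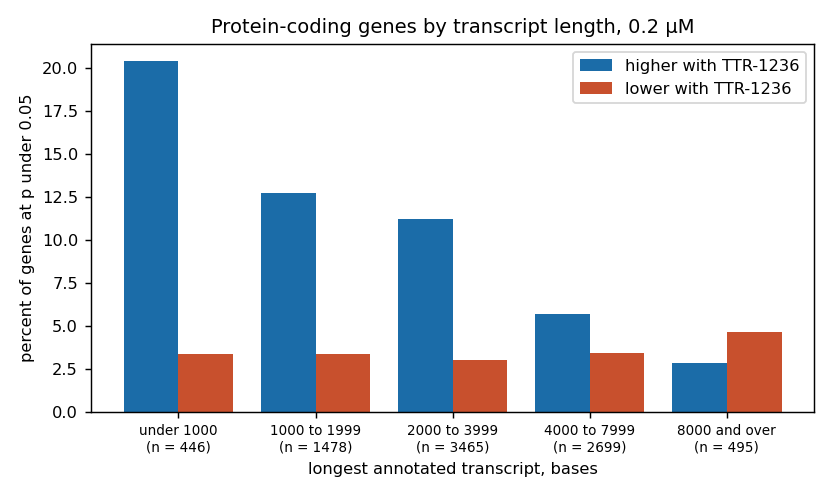
Percent of protein-coding genes at unadjusted p under 0.05 between the agents at 0.2 µM, higher (blue) or lower (orange) with TTR-1236, by the length of the longest annotated transcript. The share of higher genes is 20.4% in the shortest class and 2.83% in the longest.

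The size of what could have been missed is given by the intervals. For 5704 of 9657 genes (59.1%) the 95% interval of the difference lay within 2-fold either way, and for the other genes a 2-fold difference in at least 1 direction was not excluded. The central 90% of differences lay between -0.63 and 0.84 on the log2(CPM + 1) scale, with 296 genes (3.07%) at least 2-fold higher with TTR-1236 and 107 (1.11%) at least 2-fold lower. The spread within a group, as the median SD of a gene on this scale, was 0.21 for TTR-1236 and 0.30 for Reference 4 at 0.2 µM, and 0.25 to 0.37 in the other groups, the highest in PBS. The median standard error of a difference was accordingly 0.29 over all 21 libraries and 0.25 over the 6 libraries compared.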

How the data were processed

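Per the labels' protocols, total RNA was isolated with a Promega kit and made into QuantSeq 3′ libraries. Cutadapt 1.15, HISAT2 2.1.0, featureCounts and mouse build mm10 appear in the submitters' processing notes. Not given in the sources used here were their settings, the strand counted, the annotation and any filter of genes. Each deposited file holds CPM, scaled by the authors, for 9657 genes and sums to 1000000. All values (100%) came within 0.001 of a whole read, with totals of 14158740 to 37410773 reads per library. Because reads lie at 3′ ends, genes whose ends overlap and near-identical copies can take each other's reads. Beside the genes marked above, the 3′ ends of Cnot7, Lss, Cpox, Csf1r, Eng and Stab1 are overlapped on the opposite strand. That of Cdt1 is overlapped on the same strand. Apoc2 is overlapped on the same strand by Gm44805, with means of 211 CPM with TTR-1236 and 142 CPM with Reference 4 at 0.2 µM. Those of Apoc2 were also 211 and 142 CPM, so both may count the same reads.

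Identifiers were matched to GENCODE M21 (GRCm38), 9651 of 9657. As planned for CPM, limma 3.58.1 in R 4.3.3 was run on log2(CPM + 1), a scale that understates changes of low genes. A count test in edgeR was planned as the main test only for files of counts. The limma fit had 7 group means over 21 libraries, a trended and robust prior, and Benjamini-Hochberg adjustment over all genes (threshold 0.05). The step was tested on simulated data. The most similar replicates still differed well beyond sampling noise (chi-square over degrees of freedom 25.1). Members, gene lists and the naming rule (Ttr, 8 set genes, the 12 smallest p in each direction among annotated genes averaging 10 CPM or more whose groups do not overlap, and the 2 smallest p in each list) were chosen with earlier results of these data known, and 1 gene that the rule names is not reported here. Alternatives were edgeR 4.0.16 (with TMM or DESeq2 scaling) and DESeq2 1.42.0, both on recovered reads, TMM-rescaled CPM, other pseudocounts (0.5, 5), only genes averaging 10 CPM or more, fewer libraries, the replicate number as a block, and each library left out. Thinning, the 12 libraries of PBS and 0.2 µM, leaving out libraries of other groups and leaving out both replicates 2 were chosen after seeing the data.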

Additional observations from a re-analysis of the deposited data

How the results depend on the processing

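In limma the count of genes past the threshold between TTR-1236 and Reference 4 at 0.2 µM was 0 as reported, with TMM-rescaled CPM, with pseudocounts of 0.5 and 5, with a minimum mean of 10 CPM, with only the 12 libraries of the agents, after thinning and without both replicates 2, and edgeR called 0 with either scaling. It was 499 with only the 6 libraries compared (326 higher, 173 lower), 238 in DESeq2 (203 and 35) and 16 with the 12 libraries of PBS and 0.2 µM (16 higher). Leaving out each of the 21 libraries gave 0 to 59 genes (0 to 58 higher, 0 to 5 lower), namely 18 without Reference 4 0.2 µM replicate 3, 25 or 59 on dropping TTR-1186 0.2 µM replicate 1 or 2, 53, 37 or 8 on dropping TTR-1236 2 µM replicate 1, 2 or 3, 1 without Reference 4 2 µM replicate 1, and 0 in the others, and the cause was not tested. Lists with a called member numbered 0 as reported, 20 with 6 libraries, 13 in DESeq2, 4 with PBS and 0.2 µM, and 0 to 10 with a library left out. Genes at p under 0.05 numbered 1351 as reported, 766 to 1501 with a library left out and 521 without both replicates 2, where fewer samples enter. Genes with an interval within 2-fold numbered 4683 to 5932 with a library left out, against 5704. Genes past the threshold for agent by dose numbered 0 as reported, 66 in DESeq2 and 0 to 79 with a library left out, and a fit on 6 libraries or on PBS and 0.2 µM cannot hold that term.

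The Ttr difference lay between -0.99 and -0.17 with a library left out and never passed the threshold. Of 2820 values of the 83 other genes that the naming rule takes, 2647 kept their sign and side of the threshold under the alternatives, 168 passed it with the same sign (49 with 6 libraries and 36 in DESeq2), and 5 changed sign. These were Jak1 (-0.03 as reported) at 0.020 without TTR-1236 0.2 µM replicate 3 and 0.0065 without both replicates 2, with -0.10 to 0.020 over the libraries left out, and Cd68 (-0.05 as reported) at 0.038 without TTR-1236 0.2 µM replicate 2, 0.31 without Reference 4 0.2 µM replicate 2 and 0.40 without both, with -0.28 to 0.31 over the libraries left out. Same-numbered libraries of the agents deviated from their group means with correlations of 0.08, -0.12 and 0.03. Across all genes these values showed no pairing by number, but they cannot exclude a culture or batch shared by number. Ttr was lowest in replicate 3 with both agents. With the replicate number as a block 0 genes passed the threshold, 1324 stood at p under 0.05, and Ttr had an adjusted p of 0.561 in limma, so the block changed no call. Depth limits low genes most, Ttr among them, and leaving an agent with 2 libraries assumes that they vary like the other groups.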
